A study of Mus musculus with 3 samples.

Results

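RNA-seq values of 8 MHC class I and class I-like genes were described in bone marrow Ly6G+ myeloid cells of mice with and without sustained IL-27. The genes were chosen by name, as H2-T22, H2-T23, H2-T24, H2-T10, H2-M3, Cd1d1, Mr1 and Fcgrt, and all 8 were found among the 16072 named genes of the table. Of these, 7 had a mean of at least 1 FPKM (fragments per kilobase of transcript, scaled to the mapped fragments of the library) over the 3 libraries and entered the counts, and Mr1 did not. The libraries came from C57BL/6 mice that carried B16.F10 melanoma cells under the skin, placed 1 week before the vector. AAV-ctrl, with 2 libraries, is an empty adeno-associated virus vector, and AAV-IL27, with 1 library, is the same vector carrying linked EBI3 and p28, the subunits of IL-27, behind the CMV-chicken beta-actin promoter. That promoter is active in many cell types and so does not limit IL-27 to one of them. Both vectors were injected into muscle. The labels give no time, and the study dates its BM Gr-1+ cell RNA-seq, taken here as the same experiment, to 3 weeks after the vector. It used mice at 6 to 10 weeks of age. No group was free of tumour, and the design text counts 4 mice but assigns 3 to the groups. With 1 AAV-IL27 library there was no replicate error in that group, so no test was run. Each AAV-IL27 value was set beside both AAV-ctrl values, and a gene was counted as lower or higher only where it lay beyond both by a stated step on the log2(FPKM + 1) scale, where differences of low genes come out smaller than their fold.

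MHC class I molecules are heavy chains that pair with beta-2 microglobulin at the cell surface. The classical ones show peptides to CD8 T cells, whereas the nonclassical ones vary little between individuals and are read by natural killer cells, gamma-delta T cells and other innate-like lymphocytes. H2-T23 encodes Qa-1, which carries leader peptides of other class I chains to the CD94/NKG2A receptor. The products of H2-T22 and H2-T10 are ligands of a set of gamma-delta T cells and need no peptide, though H2-T10 is annotated as a pseudogene in the reference genome. H2-M3 presents peptides that start with N-formyl methionine, such as those of bacteria and mitochondria. CD1d (Cd1d1) shows lipids to natural killer T cells, and MR1 shows vitamin B2-related microbial metabolites to mucosal-associated invariant T cells. FcRn, the product of Fcgrt, has the same fold but presents nothing, and it protects IgG and albumin from breakdown.

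The T- and M-region genes lie in the H2 complex on chromosome 17. In the GENCODE M21 annotation of GRCm38, the build named mm10 in the submitters' processing notes, H2-T24 runs from 36005695 to 36020560, H2-T23 from 36029773 to 36032855, H2-T22 from 36037128 to 36042747 and H2-T10 from 36115876 to 36121465, all on the minus strand. H2-M3 runs from 37270220 to 37274484 on the plus strand. The other genes lie elsewhere on minus strands, with Cd1d1 on chromosome 3 from 86995834 to 86999441, Mr1 on chromosome 1 from 155127277 to 155146814 and Fcgrt on chromosome 7 from 45092990 to 45103851. GENCODE M21 classes H2-T10 as a polymorphic pseudogene and the other 7 as protein coding. RefSeq classes H2-T10 as a transcribed pseudogene, so its RNA level does not show that a protein is made.

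RefSeq promoters on GRCm38.p6 were at hand for 5 of the 8 genes (H2-T22, H2-T23, H2-M3, Mr1 and Fcgrt). The 250 bases before the transcript start are shown for H2-T22 and H2-M3, whose levels were higher in the AAV-IL27 library, and for Fcgrt, whose level was lower. Capitals mark matches, on either strand, to the core of the interferon-stimulated response element (ISRE, read as GAAA, any 2 bases, GAAA), the STAT-binding GAS element (TTCNNNGAA), the CRE core (TGACG) or the inverted CCAAT box (ATTGG). The kappaB motif (GGG, any 3 bases, TTCC) was searched as well and was not in any of the 5 windows. H2-T22 is at chr17:36042743-36042992 (minus strand), H2-M3 at chr17:37269984-37270233 (plus strand) and Fcgrt at chr7:45103823-45104072 (minus strand).
H2-T22: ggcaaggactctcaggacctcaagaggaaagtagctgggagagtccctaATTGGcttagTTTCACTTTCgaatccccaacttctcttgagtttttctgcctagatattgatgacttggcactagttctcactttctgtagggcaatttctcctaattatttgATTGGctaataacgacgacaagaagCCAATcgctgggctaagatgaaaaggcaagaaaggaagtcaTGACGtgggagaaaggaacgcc
H2-M3: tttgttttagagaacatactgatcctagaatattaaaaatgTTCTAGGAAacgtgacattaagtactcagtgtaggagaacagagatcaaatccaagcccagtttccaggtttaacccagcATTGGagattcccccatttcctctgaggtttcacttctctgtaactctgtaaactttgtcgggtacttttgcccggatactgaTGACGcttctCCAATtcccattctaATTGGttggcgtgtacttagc
Fcgrt: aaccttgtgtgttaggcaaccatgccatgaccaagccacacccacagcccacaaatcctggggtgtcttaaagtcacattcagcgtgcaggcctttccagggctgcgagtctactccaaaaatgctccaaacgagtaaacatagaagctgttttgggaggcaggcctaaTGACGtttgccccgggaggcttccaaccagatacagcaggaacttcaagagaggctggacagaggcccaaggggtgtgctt
For H2-T23, whose level did not separate from the AAV-ctrl libraries, only the 30 bases around its ISRE match are shown (chr17:36032806-36032835, minus strand), because the GENCODE M21 start of this gene, 36032855, lies upstream of the RefSeq start at 36032701. These 30 bases lie before the RefSeq start but downstream of the GENCODE start.
H2-T23: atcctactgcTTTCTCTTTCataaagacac
An ISRE core was matched in H2-T22, 191 to 182 bases before the start, and in H2-T23, 124 to 115 bases before the start, and in 3.04% of 27025 promoters of the same length. The GAS match of H2-M3, 209 to 201 bases before the start, has a counterpart in 7.18% of promoters. H2-T22, H2-M3 and Fcgrt each held 1 CRE core, a motif found in 17.9% of promoters. Inverted CCAAT boxes numbered 3 in H2-T22, 3 in H2-M3 and 1 in H2-T23, and 34.5% of all promoters hold at least 1. The window of Mr1 held none of the motifs, and no matches overlapped. The H2-T23 match lies before the RefSeq start only, and the bearing of any match on the levels was not tested. A match describes letters in a window and not a bound site.

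**Figure D1:**
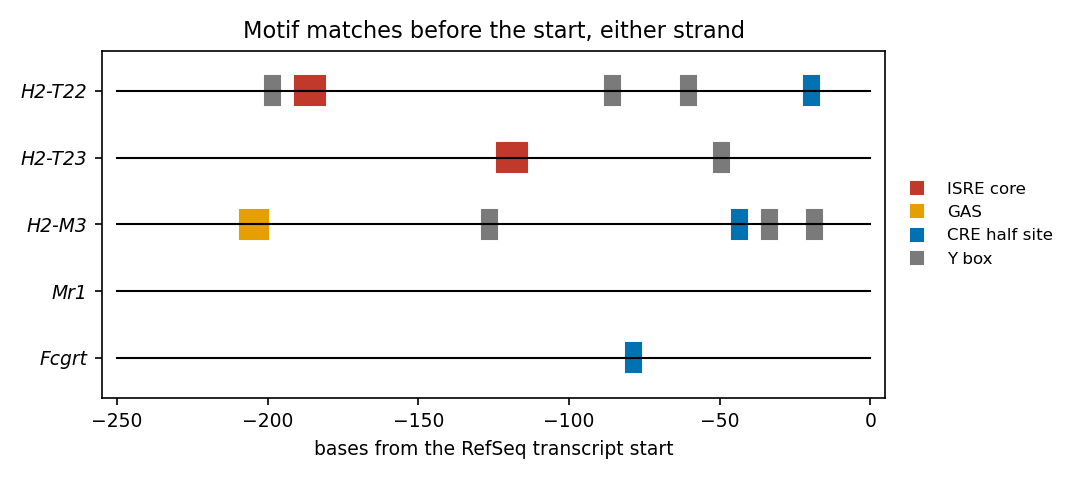
Position of each motif match in the 250 bases before the RefSeq transcript start of 5 genes. The horizontal axis gives bases from the start, each row is a gene, and boxes mark the ISRE core, GAS element, CRE core and inverted CCAAT box (labelled Y box). H2-T22 and H2-T23 hold an ISRE core, H2-M3 holds a GAS element and Mr1 holds no match.

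The libraries carried the labelled cell type. All 12 neutrophil markers were above the level filter, their summed level lay between 177019 and 187230 FPKM, and Ly6g itself reached 711.76 FPKM in AAV-ctrl 1, 766.11 in AAV-ctrl 2 and 586.29 in AAV-IL27. Depth, worked out from the spacing of low FPKM values, was about 19020000 and 19325000 fragments for AAV-ctrl and 19045000 for AAV-IL27. Over 9130 genes with a mean of at least 1 FPKM, the absolute difference between the AAV-ctrl libraries had a median of 0.087 on the log2 scale and a 99th percentile of 0.57. Markers of some other marrow cells were lower in the AAV-IL27 library. Counted by a step of at least 1 log2 unit below both AAV-ctrl libraries, 2.32% of all genes were lower. By that step, 11 of 13 macrophage, 4 of 4 B cell, 10 of 10 erythroid and 3 of 5 megakaryocyte markers above the filter were lower. So were 1 of 2 endothelial and 1 of 3 mesenchymal stroma markers, but 0 of 6 monocyte, 0 of 1 dendritic cell and 0 of 3 T and NK cell markers.

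By direction alone, 3 of the 8 genes were higher in the AAV-IL27 library than in both AAV-ctrl libraries (H2-T22, H2-T10 and H2-M3). Of the rest, 2 lay between them (H2-T23 and H2-T24) and 3 were lower than both (Fcgrt, Cd1d1 and Mr1, the last under the level filter). By a step of at least 1 log2 unit beyond both AAV-ctrl libraries, Fcgrt alone was lower (1 of 7 genes counted, against 2.32% of all genes) and 0 of 7 were higher (against 0.307%). By a step of at least 0.5, 2 of 7 were lower, Fcgrt and Cd1d1 (against 7.01% of all genes), and 3 of 7 were higher, H2-T22, H2-T10 and H2-M3 (against 1.57%). The transcripts of H2-T22 and H2-T10 are much alike, as described below, so these 3 may not be independent counts. Lying outside both AAV-ctrl values by any amount is common, at 38.9% of genes above and 41.9% below. The split by direction alone is near these shares. With either AAV-ctrl library taken as the odd one in place of AAV-IL27, 0 of the 7 genes was beyond both others by 0.5, which few genes of any kind were. Of all 9130 genes, 31 were lower and 27 higher with AAV-ctrl 1 as the odd one, and 10 were lower and 45 higher with AAV-ctrl 2. The median log2 difference of the 7 was 0.064, against -0.0054 over all 9130 genes, with genes on both sides.

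**Figure D2:**
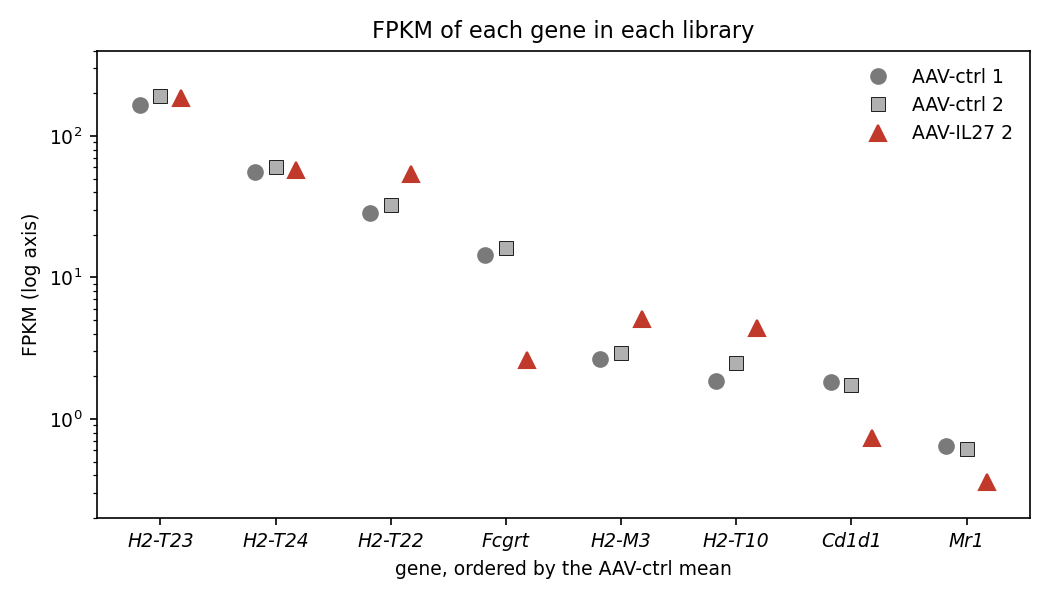
FPKM of the 8 genes in each library on a log axis, ordered by the AAV-ctrl mean. Grey circles and squares are the AAV-ctrl libraries and red triangles the AAV-IL27 library. The triangle lies above both controls for H2-T22, H2-M3 and H2-T10, level with them for H2-T23 and H2-T24, and below them for Fcgrt, Cd1d1 and Mr1.

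H2-T23 was the most abundant of the 8, and the gene did not separate between the groups. H2-T23 (NCBI Gene 15040) had 165.78 and 191.91 FPKM in AAV-ctrl (178.8 ± 18.5, SD, n = 2) and 186.49 in AAV-IL27. The AAV-IL27 value lies between the controls, at a log2 difference of 0.064, smaller than the difference of 0.21 between the controls themselves. H2-T24 (NCBI Gene 15042), the next most abundant, had 55.16 and 60.42 FPKM in AAV-ctrl (57.8 ± 3.72, SD, n = 2) and 57.77 in AAV-IL27, again between the controls, at a log2 difference of 0.00095. For these genes counting error was small, with an estimated 4421, 5200 and 4979 fragments for H2-T23 and 2216, 2466 and 2324 for H2-T24 in the controls and AAV-IL27 in turn. Of the 50-base words in the H2-T23 transcript, 28.8% also occur in transcripts of other genes, most often in H2-T-ps, so its single value is less certain than that of H2-T24, where 3.23% do.

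H2-T22 was higher in the AAV-IL27 library. Its level (NCBI Gene 15039) was 28.52 and 32.25 FPKM in AAV-ctrl (30.4 ± 2.64, SD, n = 2) and 54.15 in AAV-IL27, 1.78 times the AAV-ctrl mean. The AAV-IL27 value was above both controls, by 0.90 and 0.73 on the log2 scale, while the controls differed by 0.17. Ranked by how far they lay above the nearer AAV-ctrl library, H2-T22 stood at 59 among the 9130 genes, and 0.252% of genes differed by as much between the AAV-ctrl libraries. The estimated fragments were 917 (95% Poisson interval 859 to 978) and 1054 (991 to 1120) in AAV-ctrl and 1744 (1663 to 1828) in AAV-IL27. Of its 50-base words, 44.7% also occur in transcripts of other genes, first H2-T10 and then Gm11127, so its single value carries the doubt described for H2-T23, to which the intervals are blind. These intervals, like those that follow, cover counting error only.

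H2-T10 followed H2-T22 at a much lower level. H2-T10 (NCBI Gene 15024) had 1.85 and 2.50 FPKM in AAV-ctrl (2.18 ± 0.46, SD, n = 2) and 4.36 in AAV-IL27, 2.00 times the AAV-ctrl mean and a log2 difference of 0.76. Its controls were spread more widely than those of H2-T22, by 0.30 on the log2 scale, and the AAV-IL27 value was still above both. The transcripts of the 2 genes are 96.4% identical over an alignment of 1703 nt, and 39.2% of the 50-base words of H2-T10 occur in H2-T22, so fragments may have been split between them by the authors' counting. H2-T10 stood at 6.49% and 7.75% of the H2-T22 level in AAV-ctrl and at 8.05% in AAV-IL27. Their summed level, on which a split of fragments between them bears little, was 30.37 and 34.75 FPKM in AAV-ctrl and 58.51 in AAV-IL27. H2-T9, a further T-region gene looked up after its values were seen, had 0.5 and 0.38 FPKM in AAV-ctrl and 1.36 in AAV-IL27, with a mean under 1 FPKM.

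H2-M3, the gene for the presenter of N-formylated peptides, was the third gene with a higher level. H2-M3 (NCBI Gene 14991) had 2.65 and 2.94 FPKM in AAV-ctrl (2.80 ± 0.205, SD, n = 2) and 5.10 in AAV-IL27, 1.82 times the AAV-ctrl mean and a log2 difference of 0.69. The controls were close together, 0.11 apart on the log2 scale. The level rests on an estimated 69 (53.7 to 87.3) and 78 (61.7 to 97.3) fragments in AAV-ctrl and 133 (111 to 158) in AAV-IL27. The AAV-IL27 interval lies outside both AAV-ctrl intervals. For H2-T22 the intervals of the AAV-ctrl libraries lie outside each other too (859 to 978 and 991 to 1120), so this does not measure a difference between groups. Its transcript shares 0.576% of its 50-base words with other genes, which leaves little room for fragments of related genes.

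**Figure D3:**
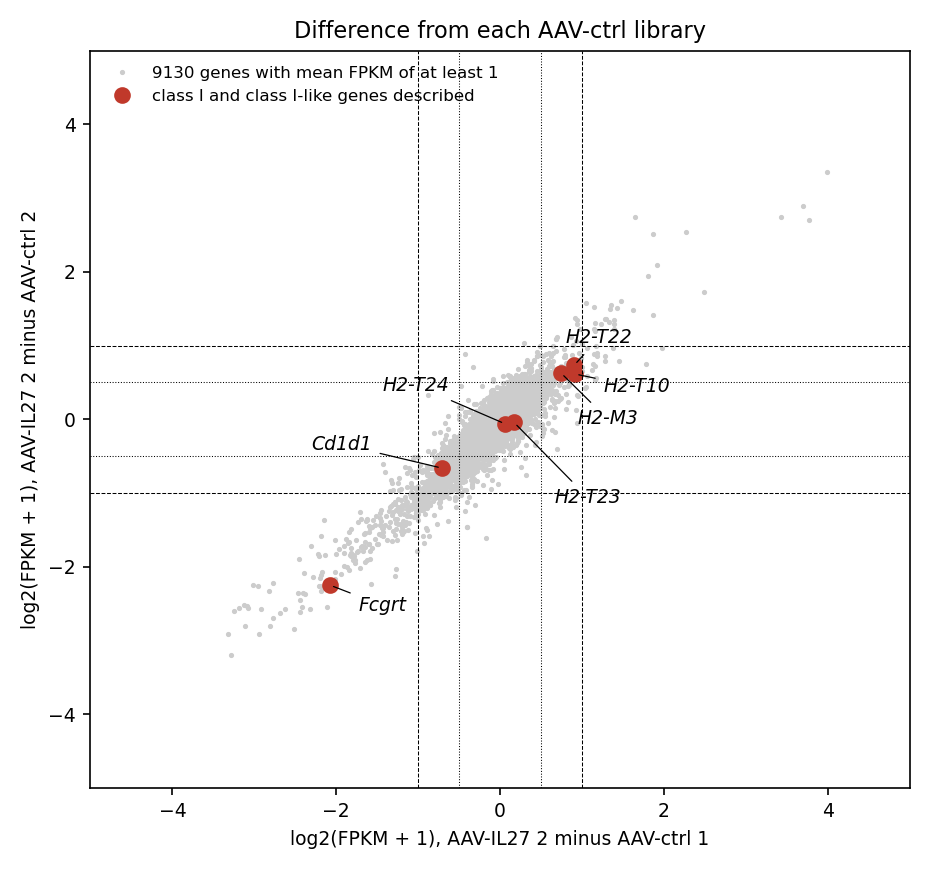
Difference on the log2(FPKM + 1) scale between the AAV-IL27 library and AAV-ctrl 1 (horizontal axis) or AAV-ctrl 2 (vertical axis) for 9130 genes (grey) and the 7 class I and class I-like genes counted (red). Dotted lines mark 0.5 and dashed lines 1 log2 unit. Fcgrt is the red point beyond 1 on both axes, and H2-T22, H2-T10 and H2-M3 lie between 0.5 and 1.

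Ratios within a library do not depend on how libraries are scaled. H2-T24 kept to 33.3%, 31.5% and 31.0% of the H2-T23 level, with the controls first and AAV-IL27 last. H2-T22 went from 17.2% and 16.8% of H2-T23 in AAV-ctrl to 29.0% in AAV-IL27, H2-M3 from 1.60% and 1.53% to 2.73%, and H2-T10 from 1.12% and 1.30% to 2.34%. Relative to H2-T23, whose own AAV-IL27 level lay between the controls, the 3 higher genes were thus higher in the AAV-IL27 library. In the AAV-IL27 library H2-T22 (54.15 FPKM) nearly reached H2-T24 (57.77), at 93.7% of its level against 51.7% and 53.4% in AAV-ctrl. The 5 T- and M-region genes summed to 253.96 and 290.02 FPKM in AAV-ctrl and 307.87 in AAV-IL27. Of that sum H2-T23 made up 65.3%, 66.2% and 60.6%, and H2-T22 11.2%, 11.1% and 17.6%.

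B2m, the light chain that these heavy chains need at the surface, was higher in the AAV-IL27 library as well. Its level was 1577.96 and 1639.94 FPKM in AAV-ctrl and 2614.36 in AAV-IL27, a log2 difference of 0.70. Set against B2m, H2-T22 was at 1.81% and 1.97% in AAV-ctrl and 2.07% in AAV-IL27, and H2-M3 at 0.168%, 0.179% and 0.195%. H2-T23 in turn was at 10.51% and 11.7% of B2m in AAV-ctrl and at 7.13% in AAV-IL27, and H2-T24 at 3.50%, 3.68% and 2.21%. Relative to the light chain, then, H2-T22 and H2-M3 lay slightly above both controls, whereas H2-T23 and H2-T24 lay below both. For H2-T22 the step above the nearer control was smaller than the gap between the controls. H2-M3 rests on an estimated 69, 78 and 133 fragments, and its step is small beside their counting error.

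**Figure D4:**
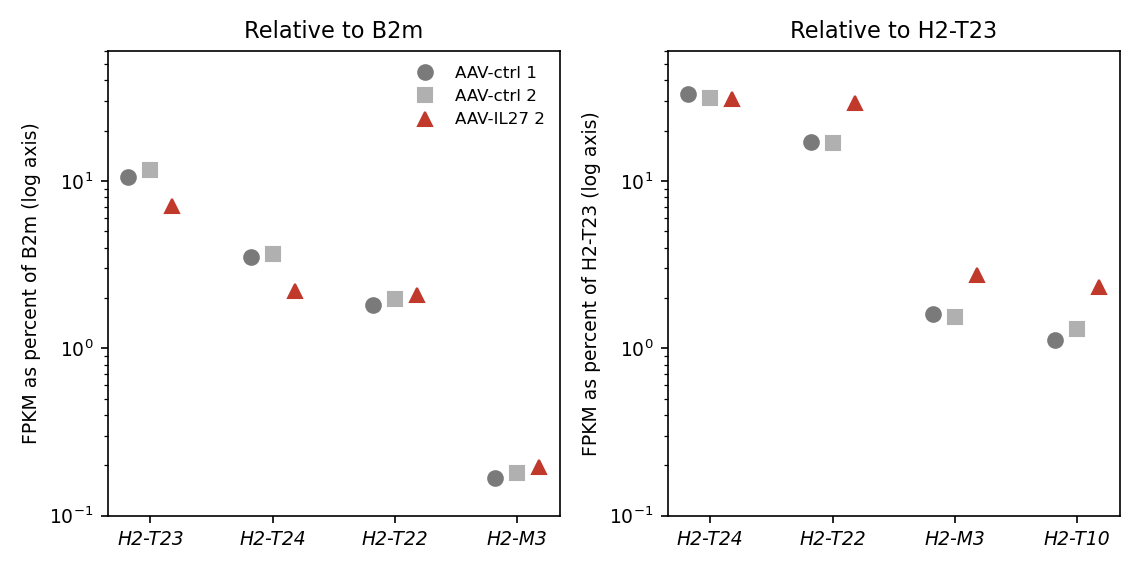
FPKM of nonclassical genes as a percent of B2m (left) and of H2-T23 (right) in each library, on log axes. Grey circles and squares are the AAV-ctrl libraries and red triangles the AAV-IL27 library. Against B2m the triangles of H2-T23 (7.13%) and H2-T24 (2.21%) lie below both controls, and against H2-T23 the triangles of H2-T22, H2-M3 and H2-T10 lie above.

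The genes described here that lie outside the H2 complex were at lower values in the AAV-IL27 library, with Fcgrt and Cd1d1 beyond both controls by 0.5 and Mr1 under the level filter. Fcgrt (NCBI Gene 14132) had 14.31 and 16.20 FPKM in AAV-ctrl (15.3 ± 1.34, SD, n = 2) and 2.62 in AAV-IL27, which is 17.2% of the AAV-ctrl mean. The AAV-IL27 value was below both controls, by 2.08 and 2.25 on the log2 scale, and 0 of the 9130 genes differed by as much between the AAV-ctrl libraries. Ranked by how far they lay below the nearer AAV-ctrl library, Fcgrt stood at 35. The level rests on an estimated 463 (422 to 507) and 532 (488 to 579) fragments in AAV-ctrl and 85 (67.9 to 105) in AAV-IL27, and none of its 50-base words occurs in another gene.

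Cd1d1 (NCBI Gene 12479) had 1.82 and 1.74 FPKM in AAV-ctrl (1.78 ± 0.057, SD, n = 2) and 0.73 in AAV-IL27, 41.0% of the AAV-ctrl mean. The log2 difference was -0.68, and the controls lay within 0.042 of each other. The estimated fragments were 65 (50.2 to 82.8) and 63 (48.4 to 80.6) in AAV-ctrl and 26 (17.0 to 38.1) in AAV-IL27. The AAV-IL27 interval lies outside both AAV-ctrl intervals, which, as for H2-M3, does not measure a difference between groups. Its close relative Cd1d2, with which 25.8% of its 50-base words are shared, was listed at 0 and 0.11 FPKM in AAV-ctrl and at 0 in AAV-IL27. Mr1 (NCBI Gene 15064) had the lowest level of the 8, at 0.64 and 0.61 FPKM in AAV-ctrl (0.625 ± 0.021, SD, n = 2) and 0.36 in AAV-IL27, 57.6% of the AAV-ctrl mean. For Mr1 the counting intervals overlap, with an estimated 30 (20.2 to 42.8) and 29 (19.4 to 41.6) fragments in AAV-ctrl and 17 (9.90 to 27.2) in AAV-IL27, and the difference was not tested.

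Markers of some other cell types were lower in the AAV-IL27 library as well. The summed level of the macrophage list was 1001.35 and 974.94 FPKM in AAV-ctrl and 354.0 in AAV-IL27, 35.8% of the AAV-ctrl mean, with C1qa at 137.53, 145.73 and 39.40 FPKM. The B cell list summed to 27.68, 35.06 and 4.38 FPKM (14.0%), and the dendritic cell list to 19.04, 14.48 and 26.36 FPKM (157%), most of it Itgax. The monocyte list reached 108% of its AAV-ctrl mean, and Csf1r at 78.57, 74.50 and 75.39 FPKM. Single macrophage markers ranged from 11.3% of the AAV-ctrl mean (Cd163) to 83.2% (Adgre1). The 17.2% of Fcgrt is near the low end of that wide range. Only Cd163, Siglec1 (14.1%) and Mrc1 (16.1%) were below it. The other macrophage markers were above it, among them Vcam1 at 18.4%, C1qa at 27.8%, Hmox1 at 31.1% and Slc40a1 at 75.5%. The erythroid list was at 13.7% and the megakaryocyte list at 17.1% of the AAV-ctrl mean. None of the 13 macrophage and 8 B cell markers was at 0 in any library. In bulk RNA fewer cells of a type and less RNA per cell cannot be told apart, and the part of these cell types in the lower levels of Fcgrt, Cd1d1 and Mr1 was not tested.

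**Figure D5:**
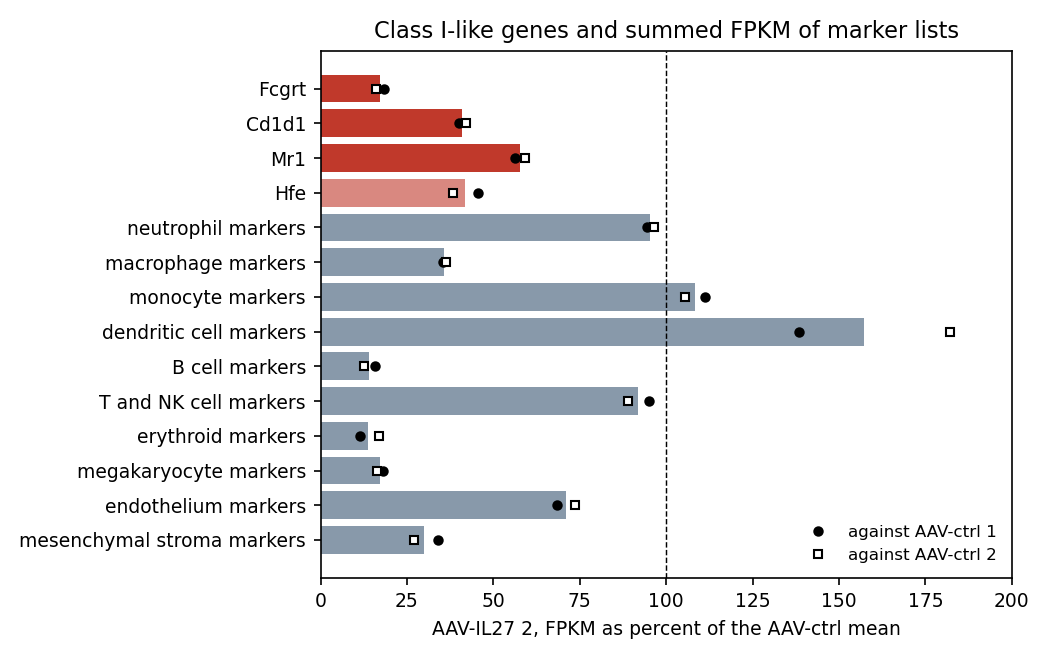
FPKM in the AAV-IL27 library as a percent of the AAV-ctrl mean for the class I-like genes Fcgrt, Cd1d1, Mr1 and Hfe (red) and for the summed FPKM of marker lists (grey). Bars are the ratio to the mean of the AAV-ctrl libraries, circles and squares the ratio to each of them, and the dashed line is 100%. Fcgrt is at 17.2%, the summed macrophage list, whose single genes range from 11.3% to 83.2%, at 35.8% and the neutrophil list at 95.4%.

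Ordered by FPKM, which is per transcript length, the AAV-ctrl levels ran H2-T23, H2-T24, H2-T22, Fcgrt, H2-M3, H2-T10, Cd1d1 and Mr1. H2-T10 (2.18 ± 0.46 FPKM) was not separated by more than the spread from its neighbours H2-M3 (2.80 ± 0.205) and Cd1d1 (1.78 ± 0.057), whose mean ± SD ranges overlap its own. In the AAV-IL27 library Fcgrt, at 2.62 FPKM, stood behind H2-M3 (5.10) and H2-T10 (4.36) in the order, and the other places were the same. By the distance over the 2 differences from AAV-ctrl, in 3 libraries, the genes most like H2-T22 were Cxcl2 (distance 0.053 log2 units), Plgrkt (0.072) and Dusp6 (0.076), and those most like Fcgrt were Siglec1 (0.076), Mgst3 (0.11) and Cldn13 (0.12). Siglec1 is in the macrophage list, and Mgst3 and Cldn13 are in none of the marker lists.

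The wider class I pathway was read from 6 gene lists. Among classical and Qa-region heavy chains, 6 of 9 genes above the filter were at least 1 log2 unit higher than both AAV-ctrl libraries (H2-Q4, H2-Q5, H2-Q6, H2-Q7, H2-Q8 and H2-Q9), where 0.307% of all genes and 0 of the 7 genes described here were. The difference between the lists was not tested. H2-K1 had 243.04 and 322.28 FPKM in AAV-ctrl and 632.93 in AAV-IL27, and H2-D1 at 1478.74, 1669.96 and 2173.35 FPKM. H2-T23 was at 68.2% and 59.5% of H2-K1 in AAV-ctrl and at 29.5% in AAV-IL27. Of the light chain, peptide-loading and immunoproteasome genes, 0 of 14 were beyond both controls by 1 and 2 were higher by 0.5, namely B2m and the peptide transporter gene Tap1 (46.43, 50.77 and 77.59 FPKM), against 1.57% of all genes. The list median was 0.12, and 0 of 14 by a step of 1 is near the shares over all genes, 2.32% lower and 0.307% higher.

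Of 18 regulators of class I transcription, 0 were beyond both controls by 1. By 0.5, Nlrc5, the main transactivator of class I genes, was higher (1.78, 2.83 and 5.06 FPKM, a log2 difference of 0.89) and Irf8 was lower (7.49, 7.89 and 4.66 FPKM), against 1.57% of all genes higher and 7.01% lower, and the list median was 0.088. The controls differed by 0.46 in Nlrc5, a wide spread for this gene. Of the genes for lipid handling by CD1d, 0 of 7 above the filter differed by 0.5 in either direction (median -0.011), and Psap, the precursor of the saposins, was at 702.76, 739.43 and 723.38 FPKM. Of 29 other class I-like genes, 12 were in the table and 1 was above the filter. That gene, Hfe, whose product regulates iron uptake, had 3.59 and 4.28 FPKM in AAV-ctrl and 1.64 in AAV-IL27, a log2 difference of -0.90. The receptors of Qa-1 and the related Klrk1 (5 genes) were all under a mean of 1 FPKM. Tap1, Irf8 and Psap were named after their values were seen.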

How the data were processed

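Oligo-dT selected mRNA of 3 Ly6G+ cell libraries (2 AAV-ctrl, 1 AAV-IL27) was sequenced with strand marking on DNBSEQ. The authors deposited FPKM values to 2 decimals for 16073 rows, 1 without a symbol, keyed by NCBI Gene number, on build mm10 per the labels. Aligner, counter and gene models are not given in the sources used here. The table holds 1 further column of per-sample values, headed as an IL27 library, that matches no listed sample. It was not analysed here, so every AAV-IL27 value rests on 1 library. FPKM depends on the summed fragments of a library, so a few abundant genes can shift all values.

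Differences were log2(FPKM + 1), AAV-IL27 minus the mean of AAV-ctrl. Genes with a mean of at least 1 FPKM were counted as lower or higher when at least 1 (or 0.5) log2 unit beyond both AAV-ctrl libraries. No test was run, and the study's methods likewise treat very small samples descriptively. The scripts were tested on simulated data. Fragments were estimated from FPKM steps over genes with 1 RefSeq transcript in GENCODE M21, with 70 nt taken off each length. Of 599, 561 and 564 low values, 79.1%, 79.0% and 77.1% fell within 0.2 of a whole fragment, so fragments are approximate and were not put through a count test. H2-T10, with 2 transcripts listed, has no estimate. Transcripts were compared with BLAST 2.17.0 and by shared 50-base words, and promoters came from RefSeq (GRCm38.p6). Scripts ran in Python 3.11.15 with pandas 2.3.3 and numpy 2.4.6, plots in matplotlib 3.10.9 and intervals in scipy 1.17.1.

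The genes and lists were chosen with earlier results of these data known. All 8 genes are described. Of the lists, B2m, H2-K1, H2-D1, Nlrc5, genes 1 log2 unit beyond both controls and, among other class I-like genes, those with a mean of at least 1 FPKM are named, as are the 3 genes nearest in pattern to the highest and lowest gene. Alternatives were pseudocounts of 0.1 and 0.01, other level filters, a step of 0.5, equal FPKM totals, median-ratio rescaling, leaving out each AAV-ctrl library and lengths without correction.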

Additional observations from a re-analysis of the deposited data

How the results depend on the processing

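H2-T22, H2-T10, H2-M3, Cd1d1, Mr1 and Fcgrt kept their direction under pseudocounts of 0.1 and 0.01, both rescalings and without either AAV-ctrl library, with log2 differences from 0.73 to 0.90, 0.61 to 1.02, 0.63 to 0.87, -1.27 to -0.65, -0.78 to -0.24 and -2.53 to -2.08. Without AAV-ctrl 1, H2-T23 turned to -0.041 and H2-T24 to -0.064, the values against AAV-ctrl 2, and without AAV-ctrl 2 they were 0.17 and 0.066. The members' median ranged from -0.041 to 0.17 when 1 AAV-ctrl library was left out. Lower members were 2 with pseudocounts of 0.1 and 0.01, which weigh low genes more, and 2 at the step of 0.5, where higher members were 3. Over all genes, 396 (0.1), 425 (0.01), 93 (mean of at least 5 FPKM) and 640 (step of 0.5) were lower in place of 212, and 46 (0.01) and 143 (step of 0.5) were higher in place of 28. Without 1 AAV-ctrl library 243 to 294 were lower and 40 to 49 higher, the 49 without AAV-ctrl 2.

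The median of other class I-like genes was -0.90 (Hfe alone) and became -1.21 and -1.25 with the smaller pseudocounts and 0.035 without a level filter, over 12 genes. Light chain and loading genes ranged from -0.015 to 0.21 without 1 AAV-ctrl library. CD1d lipid handling genes turned from -0.011 to 0.029 with equal totals and 0.046 with median ratios, and ranged from -0.028 to 0.0028 without 1 AAV-ctrl library. Over all genes the median shifted by 0.037 and 0.053 in these rescalings. Qa-1 receptors had no median, since none passed the filter. Without the length correction, estimated depth was 17700000 to 17910000 fragments, and the fragments of H2-T23 and H2-T24 in AAV-ctrl 2 became 5028 and 2347, outside their counting intervals. The labels state no pairing of mice between the groups, so no paired analysis was run. The AAV-IL27 group has 1 library, which could not be left out.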

Other observations

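Ligands of the activating receptor NKG2D, which are distant relatives of class I heavy chains, were near the lower limit of the table. Ulbp1 was at 0.30 and 0.47 FPKM in AAV-ctrl and 0.48 in AAV-IL27, and H60b was at 0.41, 0.18 and 0.06 FPKM. H60c was at 0.55 FPKM in both AAV-ctrl libraries and 0.34 in AAV-IL27. Raet1e was at 0.09, 0.17 and 0.26 FPKM, and Raet1d at 0.09, 0.08 and 0.17. None reached a mean of 1 FPKM, and they are given as values only.

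Lymphocyte receptor genes were as low. Klrc1, which encodes NKG2A, a receptor of Qa-1, was at 0.57 FPKM in both AAV-ctrl libraries and 0.22 in AAV-IL27. Klrk1, which encodes NKG2D, the receptor of the ligands above, was at 0.43, 0.53 and 0.20 FPKM. In the rest of that list, Klrd1 was at 0.20, 0.06 and 0.26 FPKM, Klrc2 at 0.08, 0 and 0, and Klrc3 at 0, 0 and 0.09. The listed receptor genes thus did not share a direction. The T and NK cell marker list summed to 14.82, 15.86 and 14.10 FPKM.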
